A study of Mus musculus with 8 samples.

Results

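The 9 genes described here mark or direct the mesenchyme of the embryonic lung: the T-box factors Tbx4 and Tbx5, the basic helix-loop-helix (bHLH) factors Tcf21, Twist1 and Twist2, the homeobox factor Meox2, the receptors Pdgfra and Pdgfrb of platelet-derived growth factor (Pdgf), and Wt1, a zinc finger factor of the mesothelium. They were chosen by name, and each was read from the array spot annotated to its symbol, taking the brightest where a gene had several. All 9 were measured, by 12 spots, among 24583 genes in all. The signals came from one-colour microarrays of the left lobe of 8 embryonic mouse lungs taken at E14.5, in the pseudoglandular stage, 4 labelled experimental and 4 labelled control, numbered 1 to 4 in each group by their titles. Experimental embryos carried Rosa26 rtTA/rtTA; Tg(tet(o)sFgfr2b)/+, a reverse tetracycline transactivator expressed from the ubiquitous Rosa26 locus together with a doxycycline-inducible soluble Fgfr2b that is secreted and captures the ligands of Fgfr2b. Control embryos were littermates of genotype Rosa26 rtTA/rtTA; +/+, which carry the transactivator and lack the soluble receptor. The dams of both groups had received 0.0015 mg doxycycline per g body weight by a single intraperitoneal injection 9 h before the lungs were taken. The sources used here gave neither sex nor litter of a lung, and p-values therefore cover only the variation among these 8 lobes.

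In the branching lung, mesenchyme surrounds the epithelial buds and supplies the signals that drive their outgrowth, Fgf10 foremost among them. Tbx4 and Tbx5 act upstream of Fgf10 in mouse lung mesenchyme, and Tcf21 is required in the mesenchyme for normal branching. Pdgfra marks progenitors of the cells that later build the alveolar septa and responds to Pdgfa from the epithelium, whereas Pdgfrb marks pericytes and vascular smooth muscle precursors. Fgfr2b itself sits on the epithelium.

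Whether the titles follow Fgf signaling was examined first. Etv5, an Ets factor of the distal buds and a target of Fgf10, had log2 signals of 10.42, 10.43, 13.11 and 13.26 in experimental arrays 1 to 4, against 10.09, 10.57, 13.18 and 13.26 in control arrays 1 to 4. It was therefore low in the arrays numbered 1 and 2 and high in those numbered 3 and 4 of both labelled groups, which goes against the titles. Other genes tied to this pathway were also separated by number, with Sox9 (−1.98), Etv4 (−1.87) and the bud ligand Shh (−0.51) lower and Fgf10 (0.58) higher in the arrays numbered 1 and 2. For this reason experimental and control mean the labels of the titles below, and every gene is described both by label and by title number. The Etv5 means differed by −2.83 between the numbers. For Etv5, Sox9, Etv4, Shh and Fgf10 the paper prints the same values, to 2 decimals, as changes between experimental and control lungs. The differences between the labelled groups were 0.03, −0.33, −0.30, 0.18 and 0.11 in that order, and each 95% confidence interval included 0. Which lungs carried the soluble receptor cannot be told from the labels and was not tested. If the arrays numbered 1 and 2 are the inhibited lungs, each titled group holds lungs with and without the receptor. Every difference between the labelled groups below then mixes them, and the split by title number is the contrast between inhibited and uninhibited lungs. Because that split was proposed with the Etv5 pattern known, differences between numbers are given as values with no test. The number enters a test of the labelled difference only where that difference is compared between number pairs, and in some of the alternatives. Markers of lung tissue were bright on all 8 arrays, with Nkx2-1 at 10.39 to 11.38 and the mesenchymal factor Foxf1 at 11.94 to 12.42. The deposited table does not call detection above background. Because whole lobes were hybridized, fewer cells of a type and less RNA per cell cannot be told apart.

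Between the labelled groups, 0 of the 9 genes passed (limma, adjusted p under 0.05 over all genes), against 0% of all 24583 genes. At an unadjusted p under 0.05 limma called 0 of the 9 and 876 of all genes (3.56%), and the same fit without moderated variances called 0 of the 9 and 788 of all genes, with 0 after adjustment. The limma adjusted p was above 0.999 for each of the 9. No gene of the 9 had labelled groups that did not overlap, where 1.9% of all genes did. Of the 9 differences, 6 were above 0 and 3 below, with a median of 0.05 on the log2 scale beside a median of 0.00 over all genes. The precision differed widely among the 9, as the intervals below show.

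**Figure D1:**
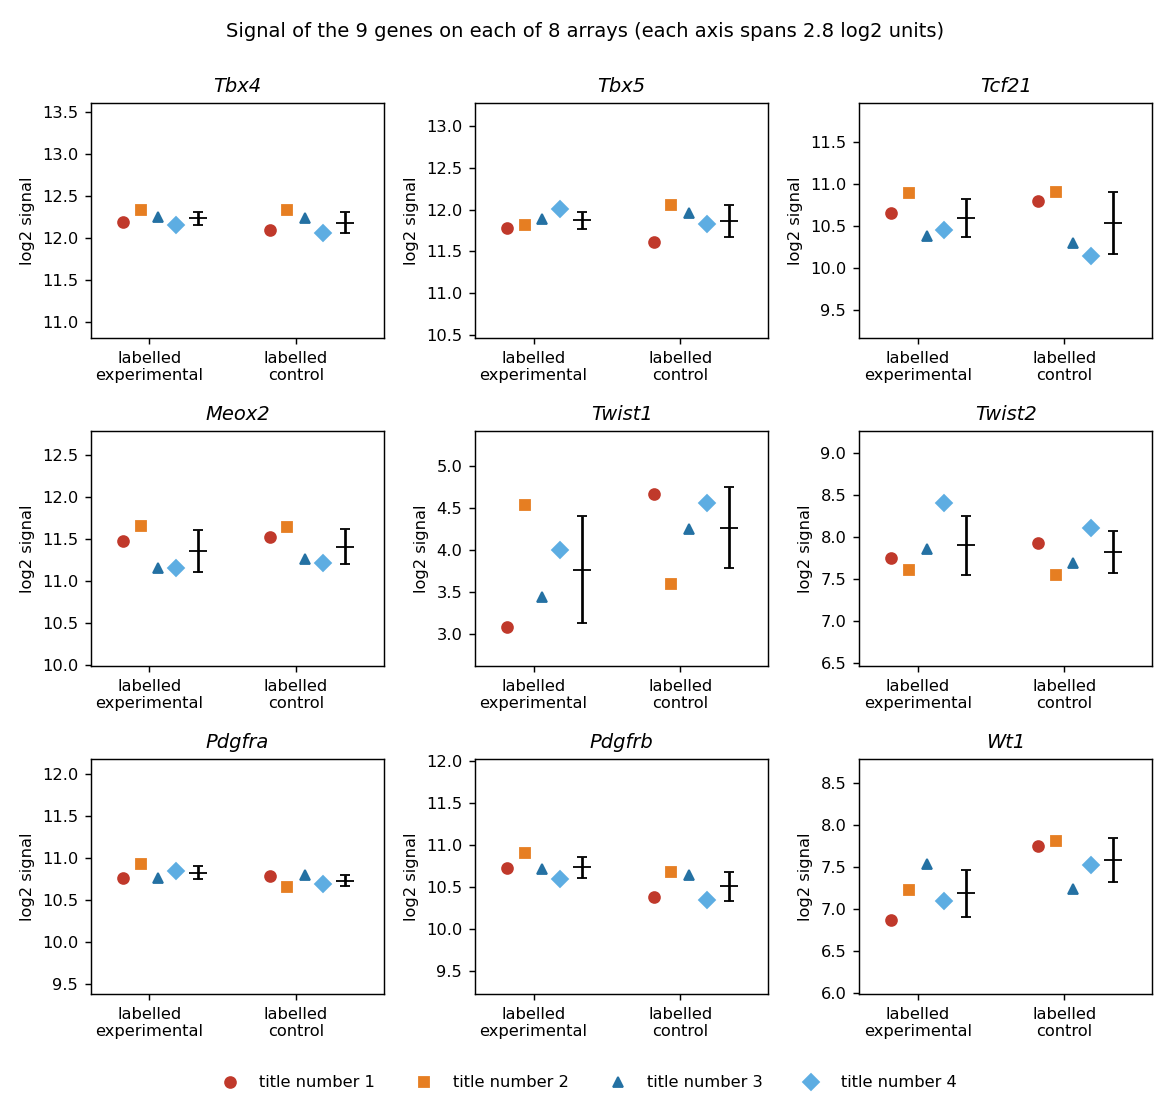
Log2 signal of each gene (vertical axes, each spanning 2.8 log2 units) on the 4 arrays labelled experimental (left) and the 4 labelled control (right), with symbols for the title number and black bars for mean ± SD (n = 4). Tbx4 and Pdgfra lie within 0.27 log2 units on all 8 arrays, Tcf21 and Meox2 step with the title number, and Twist1 is the most scattered.

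The T-box factors held nearly level signals. Tbx4, which specifies lung and tracheal mesenchyme, had 12.19, 12.34, 12.25 and 12.15 in experimental arrays 1 to 4 and 12.10, 12.33, 12.24 and 12.07 in control arrays 1 to 4. Its difference was 0.05 (95% confidence interval −0.18 to 0.29), which is 1.04-fold (0.88 to 1.22). The array labelled experimental was the higher one within each of the 4 title numbers, by 0.01 to 0.10, less than the spread between numbers. Tbx5, the paralog of Tbx4 that is also a factor of the atria, had 11.78, 11.82, 11.89 and 12.01 in the experimental arrays and 11.61, 12.06, 11.95 and 11.83 in the control arrays. The groups overlapped, with a difference of 0.01 (−0.27 to 0.30).

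By title number the T-box factors overlapped as well. Tbx4 spanned 12.10 to 12.34 in the arrays numbered 1 and 2 and 12.07 to 12.25 in those numbered 3 and 4, and the means differed by 0.06. Tbx5 spanned 11.61 to 12.06 and 11.83 to 12.01 in the same order, with means that differed by −0.10. Both genes thus showed little of the 2.83 log2 units by which mean Etv5 was lower in the arrays numbered 1 and 2. Since cardiac muscle also expresses Tbx5, the cardiac list is given beside it. Of its 9 genes 8 were lower in the experimental arrays in sign, and the median was −0.46. At an unadjusted p under 0.05 limma called 5 of the 9 cardiac genes, beside 3.56% of all genes, and 0 passed the adjustment. Its mean signal was 8.49 to 9.11 in the experimental and 8.79 to 9.27 in the control arrays. That mean includes Myh7, which differed by −3.88 between the title numbers. Myh6, Tnnt2, Myl7 and Myl4 were lower in the experimental arrays with no overlap between the labels, where 1.9% of all genes had none. The other cardiac genes overlapped. Tbx5 differed by 0.01, and the part of cardiac tissue in the Tbx5 signal was not tested.

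Of the genes linked to the T-box factors in lung mesenchyme, Fgf10 stepped with the number. Its signals were 9.81, 9.72, 9.67 and 9.48 in experimental 1, experimental 2, control 1 and control 2, against 8.98, 9.22, 9.01 and 9.15 in experimental 3, experimental 4, control 3 and control 4. All 4 arrays numbered 1 and 2 lay above all 4 numbered 3 and 4, by 0.58 in the means. Bmp4, a ligand made in the distal epithelium and the mesenchyme, ran the other way, at 11.48 to 11.57 in the arrays numbered 1 and 2 and 11.95 to 12.13 in those numbered 3 and 4. Wnt2, a mesenchymal Wnt ligand, differed by 0.11 with overlap. Wnt2b differed by 0.23 at signals of 2.59 to 3.34, close to the lowest value on the arrays (2.00). Between the labelled groups these 4 genes differed by 0.11 (−0.41 to 0.63) for Fgf10, −0.01 (−0.47 to 0.46) for Bmp4, −0.01 (−0.26 to 0.23) for Wnt2 and 0.29 (−0.10 to 0.68) for Wnt2b, and 0 passed. Fgf10 therefore varied with the number while Tbx4 and Tbx5 overlapped between numbers. The other T-box genes of lung mesenchyme were split, since Tbx2 overlapped between numbers (−0.04) and Tbx3 did not (−0.26).

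Tcf21 and Meox2 were the genes whose arrays separated by title number. Tcf21 had 10.65, 10.89, 10.79 and 10.90 in experimental 1, experimental 2, control 1 and control 2, against 10.38, 10.45, 10.30 and 10.14 in experimental 3, experimental 4, control 3 and control 4. Meox2, a homeobox factor of somite and other mesoderm that is also active in vascular cells, had 11.48, 11.65, 11.52 and 11.64 in the arrays numbered 1 and 2 and 11.15, 11.15, 11.26 and 11.21 in those numbered 3 and 4, in the same order of labels. For both genes every array numbered 1 or 2 lay above every array numbered 3 or 4, by 0.49 in the means of Tcf21 (1.41-fold) and 0.38 in those of Meox2 (1.30-fold). Over all genes, 10.6% were separated in this way, 5.17% higher and 5.39% lower in the arrays numbered 1 and 2, and 17.3% of the genes with a signal above the median. The 2 of 9 found here (22.2%) lie near that share, so the count says nothing particular about the 9.

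Matrix genes of fibroblasts stepped in the same direction as Tcf21 and Meox2. The fibroblast matrix list, which holds structural genes such as Vim, Col1a1 and Fn1, had a mean of 12.42 to 12.75 in the arrays numbered 1 and 2 and of 12.07 to 12.31 in those numbered 3 and 4, and 6 of its 12 genes were separated, all higher. The epithelial list, which includes Etv5, had 10.29 to 10.59 and 11.33 to 11.42 in the same order. That step was largest for Etv5, Sox9 (−1.98), Etv4 (−1.87) and Sftpc (−1.33). Of the 11 epithelial genes 8 were separated, all lower, where 10.6% of all genes were separated in either direction. These 8 include Etv5, from whose pattern the split was proposed, and Sox9, Etv4 and Shh, which were set beside it. The count is therefore not separate evidence about the epithelium. Also among the 8 were Epcam (−0.33) and the junction gene Cldn6 (−0.67), while Krt8 (0.07), Krt18 (0.11) and Cdh1 (−0.18) overlapped between the numbers. After the fibroblast mean was subtracted on each array, which moved the median of all genes by −0.38 between the numbers, Tcf21 differed by 0.11 and Meox2 by 0.00, and both overlapped. On that scale Tbx4 (−0.32), Tbx5 (−0.48) and Twist2 (−0.69) were the separated genes of the 9, beside 29.8% of all genes, nearly all lower. The subtracted mean differed by 0.38 between the numbers and was raised by Lum (0.94), Dcn (0.83), Mfap5 (0.77) and Eln (0.61), whereas the median of the list was 0.24 and Vim (0.08) and Col1a1 (0.21) stepped less than Tcf21 and Meox2. What part the share of mesenchyme had in this was not tested.

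Between the labelled groups Tcf21 differed by 0.06 (−0.40 to 0.52) and Meox2 by −0.05 (−0.42 to 0.31). Within numbers 1 and 2 Tcf21 was lower in the experimental array, by 0.15 and 0.01, and within those numbered 3 and 4 it was higher, by 0.08 and 0.32. The test of that difference between number pairs gave −0.28 (−0.79 to 0.24, limma interaction, adjusted p above 0.999), and it called 0 of the 9 and 0 of all 24583 genes (0%), with 0 of the 9 and 1181 of all genes at an unadjusted p under 0.05.

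Because Tcf21 and Meox2 moved together, their promoters are shown, from RefSeq on GRCm38.p6. The Tcf21 window lies at chr10:22820094-22820393 on the minus strand and the Meox2 window at chr12:37108290-37108589 on the plus strand, each running from upstream of the transcript start to shortly past it. Capitals mark matches to the E-box CANNTG, the sequence bound by bHLH factors such as Tcf21 and Twist1.
Tcf21: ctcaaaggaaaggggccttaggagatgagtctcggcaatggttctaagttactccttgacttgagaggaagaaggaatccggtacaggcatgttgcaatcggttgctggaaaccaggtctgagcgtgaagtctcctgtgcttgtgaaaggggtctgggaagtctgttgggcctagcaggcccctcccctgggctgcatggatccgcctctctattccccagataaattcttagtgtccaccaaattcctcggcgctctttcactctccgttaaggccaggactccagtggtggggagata
Meox2: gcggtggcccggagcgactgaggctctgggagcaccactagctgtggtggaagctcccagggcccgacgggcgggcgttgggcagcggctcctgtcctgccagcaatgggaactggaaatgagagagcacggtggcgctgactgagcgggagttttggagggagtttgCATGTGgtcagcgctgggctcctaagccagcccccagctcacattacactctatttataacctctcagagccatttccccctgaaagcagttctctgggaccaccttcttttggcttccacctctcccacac
The Meox2 window held 1 E-box, CATGTG, starting at −82 from the transcript start, and the Tcf21 window held 0. An E-box stood in 72.3% of 32851 promoter windows of this length. The TATA box TATAAA, searched on both strands, was in the Meox2 window and in 13.6% of all windows, and not in that of Tcf21. The T-box core TCACACC and the CArG box, searched on both strands, were in neither window and in 3.98% and 1.63% of all windows. The matches are a description of these letters alone. Windows were used for 6 of the 9 genes. Among those 6, E-boxes numbered 6 for Tbx4, 2 for Pdgfra, 1 for Meox2 and 0 for Tcf21, Twist1 and Twist2.

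The genes whose pattern over the 8 arrays was most like these were looked up as the smallest root mean square difference of mean-centred log2 signals among genes brighter than the median. For Meox2 they were Cald1 (0.05), the actin-binding caldesmon, and Nexn (0.05), an actin-filament protein. For Tcf21 they were Serping1 (0.07), the C1 inhibitor, and Palld (0.09), an actin-associated scaffold. The lookup for Meox2 and Tcf21 was chosen after their values were seen. The arrays fall into separate sets by number, so no correlation is given.

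The Twist genes gave less precise values. Twist2, a bHLH repressor of dermal and other mesenchyme, had 7.75, 7.60, 7.85 and 8.41 in experimental arrays 1 to 4 and 7.93, 7.55, 7.70 and 8.11 in control arrays 1 to 4. Its groups overlapped, with a difference of 0.08 (−0.38 to 0.54). The arrays numbered 1 and 2 spanned 7.55 to 7.93 and those numbered 3 and 4 spanned 7.70 to 8.41, so Twist2 ran opposite in mean to Tcf21 (−0.31) but with overlap, and the highest array of each label was number 4. The nearest patterns were those of Mitd1 (0.07) and Krtap20-2 (0.08).

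Twist1, which drives mesenchymal fate in the head and limb, had 3.09, 4.54, 3.44 and 4.01 in the experimental arrays and 4.67, 3.60, 4.25 and 4.56 in the control arrays. Its mean was 3.77 ± 0.64 in the experimental and 4.27 ± 0.48 in the control arrays (SD, n = 4), the dimmest signals of the 9. Its difference of −0.50 had the widest interval of the 9 (−1.29 to 0.29), and the difference within a number was −1.58, 0.94, −0.82 and −0.55 for numbers 1 to 4. The nearest patterns, of Mctp2 (0.27) and Naif1 (0.29), were also the least close of those looked up. With 1 dim spot, neither a change of Twist1 nor its absence was detectable here.

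The bHLH factors act as dimers with E proteins and are held back by the Id proteins, which bind E proteins without binding DNA. Of 9 such partner and related genes 0 passed between the labelled groups, with a median of 0.13, while 5 were separated by number (55.6%, beside 10.6% of all genes and 17.3% of those brighter than the median). Id2 had the widest difference of these (−1.69), at 9.59 to 10.15 in the arrays numbered 1 and 2 and 11.51 to 11.84 in those numbered 3 and 4. Id1 (−0.71) and Id3 (−0.36) were also separated and lower, and Id4 overlapped (−0.05). Among the E proteins, Tcf3 was separated and lower (−0.23), Tcf4 separated and higher (0.18), and Tcf12 overlapped (0.14). Hand1 and Hand2, bHLH factors of the heart and lateral mesoderm, stayed at 2.44 to 3.24 and 2.86 to 3.89 and overlapped. Epithelial tips also express Id2, so its signal in a whole lobe is not a measure of mesenchyme alone.

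**Figure D2:**
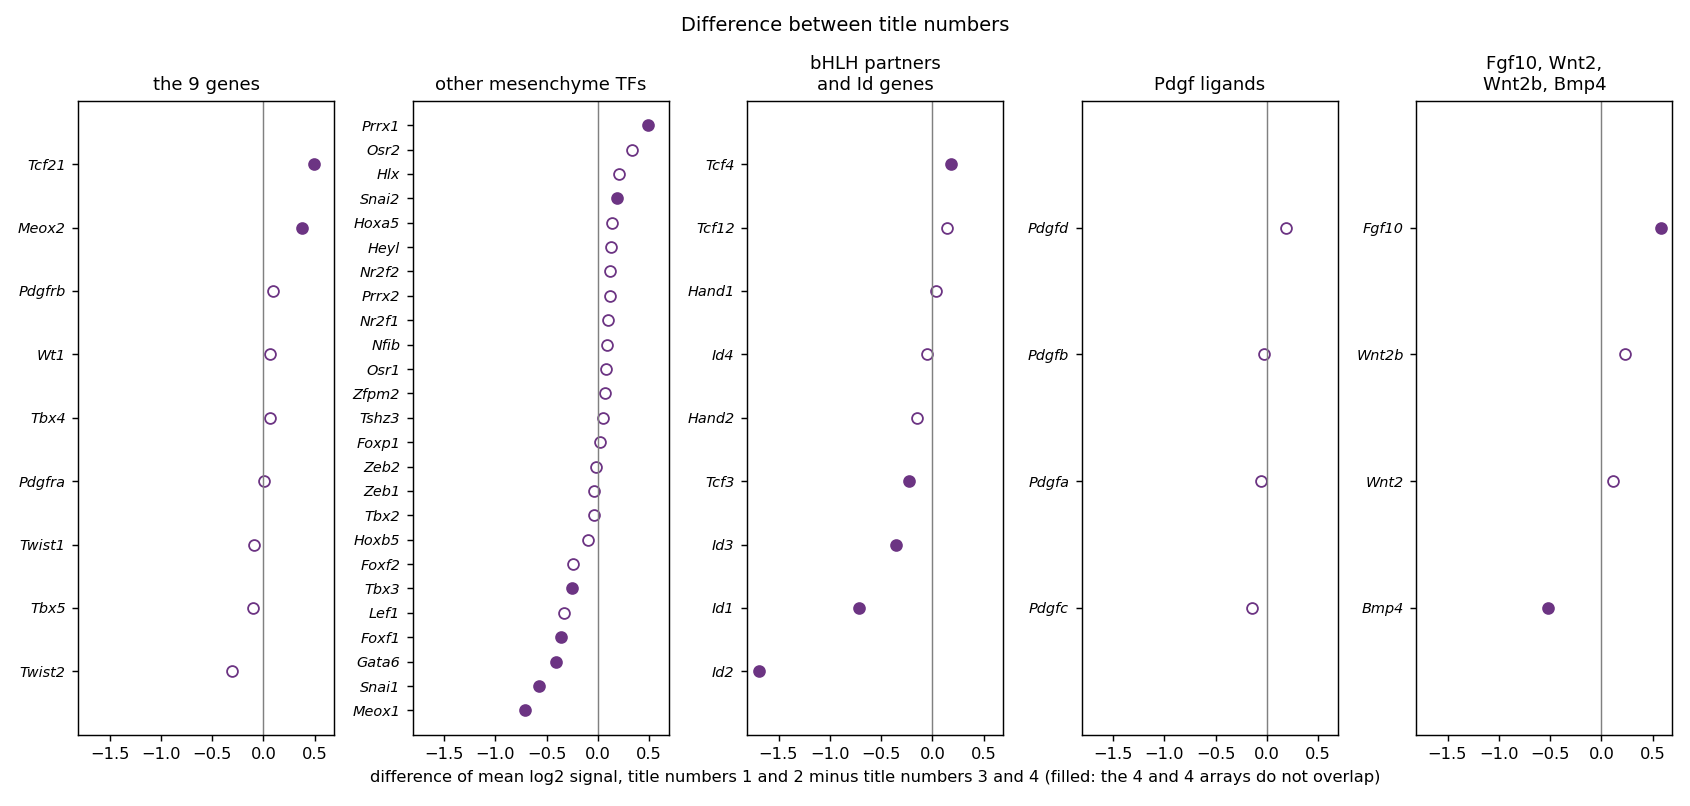
Difference of mean log2 signal (horizontal axes) between the 4 arrays numbered 1 and 2 and the 4 numbered 3 and 4, for the 9 genes and 4 related lists, filled where the arrays do not overlap. Tcf21 (0.49) and Meox2 (0.38) are filled on the higher side, Id2 (−1.69) reaches furthest to the lower side, and no Pdgf ligand is filled.

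Of the receptors for Pdgf, Pdgfra varied little and Pdgfrb more. Pdgfra had 10.76, 10.93, 10.76 and 10.84 in experimental arrays 1 to 4 and 10.78, 10.65, 10.79 and 10.68 in control arrays 1 to 4. The difference was 0.10 (−0.12 to 0.31), or 1.07-fold (0.92 to 1.24). By number the means differed by 0.01, between 10.65 to 10.93 and 10.68 to 10.84. Of the 9 genes, Pdgfra and Tbx4 had the smallest SD over the 8 arrays (0.09 and 0.10, beside a median of 0.17 over genes brighter than the median).

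Pdgfra was also the gene with the most spots. Its 3 spots had mean signals of 10.77, 5.05 and 3.67. The middle spot differed between the labelled groups by −0.22 and the dimmest by 0.12, and over the 8 arrays they ranged from 4.45 to 5.53 and from 2.94 to 4.42. The dim spots thus varied more than the bright one and disagreed in sign. With the mean of the 3 spots the difference was 0.00.

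Pdgfrb had 10.72, 10.90, 10.71 and 10.59 in the arrays labelled experimental 1 to 4, against 10.37, 10.67, 10.63 and 10.34 in control arrays 1 to 4. The array labelled experimental was higher within each of the 4 title numbers, by 0.35, 0.23, 0.08 and 0.26, although the groups overlapped. The difference was 0.23 (−0.05 to 0.51), or 1.17-fold (0.96 to 1.42), and did not pass (limma, adjusted p above 0.999). By number the means differed by 0.10, between 10.37 to 10.90 and 10.34 to 10.71. Pericyte and smooth muscle genes lay on both sides of 0 between the labelled groups, as 4 of 10 were higher and 6 lower in sign, 0 passed and the median was −0.09. Of 7 endothelial genes 6 were higher in sign in the experimental arrays, with a median of 0.15, and 0 passed. Of the 7 only Cldn5, an endothelial junction protein, had labelled groups that did not overlap, where 1.9% of all genes did. It lay at 11.90 to 11.94 in the experimental and 11.75 to 11.80 in the control arrays. Pecam1 (0.02) and Kdr (−0.04) differed little, and the part of vascular cells in the Pdgfrb values was not tested. By number 4 of the 10 pericyte and smooth muscle genes were separated (40%, beside 10.6% of all genes and 17.3% of those brighter than the median). All 4 were higher in the arrays numbered 1 and 2, among them the contractile genes Cnn1 (0.66), Myh11 (0.64) and Tagln (0.64).

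The Pdgf ligands overlapped throughout. Pdgfa, the main ligand of Pdgfra, spanned 11.86 to 12.06 in the arrays labelled experimental and 11.90 to 12.11 in those labelled control, a difference of −0.06 (−0.29 to 0.17). Pdgfb, the ligand of Pdgfrb from endothelium, differed by −0.02 (−0.25 to 0.21), Pdgfc by −0.02 (−0.37 to 0.32) and Pdgfd by −0.02 (−0.44 to 0.41). Between numbers the ligands differed by −0.06, −0.03, −0.15 and 0.18 in that order. Of these 4 genes 0 passed and 0 were separated by number.

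Wt1 had the lowest p of the 9 between the labelled groups. It had 6.87, 7.23, 7.54 and 7.10 in the arrays labelled experimental 1 to 4, against 7.75, 7.81, 7.24 and 7.52 in control arrays 1 to 4. Its mean was 7.18 ± 0.28 in the experimental and 7.58 ± 0.26 in the control arrays (SD, n = 4), a difference of −0.40 (−0.81 to 0.01), or 0.76-fold (0.57 to 1.01). The experimental array was the lower one within numbers 1, 2 and 4, by 0.88, 0.58 and 0.43, and higher within number 3, by 0.30, so the groups overlapped and the difference did not pass (unadjusted p = 0.0562, limma, adjusted p above 0.999). In the arrays numbered 1 and 2 alone the difference was −0.73, and in those numbered 3 and 4 alone it was −0.07. The test of the difference between number pairs gave −0.67 (−1.41 to 0.07, limma interaction, adjusted p above 0.999).

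The dimmer Wt1 spot, with a mean of 4.77, differed by −0.11 between the labelled groups. It was 4.21, 5.37, 5.16 and 4.13 in the experimental and 5.51, 5.48, 3.77 and 4.55 in the control arrays. Both spots were therefore lower in sign in the experimental arrays and both were higher within number 3. By number the brighter spot differed by 0.07 with overlap and the dimmer one by 0.74, and the mean of both spots differed by 0.40. The nearest patterns to that of Wt1 were AU041133 (0.10) and Ccn1 (0.13), a matricellular protein.

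Other mesothelial genes were set beside Wt1. Of 9 measured, 7 were lower and 2 higher in sign in the experimental arrays, 0 passed and the median was −0.11. The mean of the list was 7.34 to 7.71 in the experimental and 7.55 to 7.74 in the control arrays. Control 1 held the highest mean and experimental 1 the lowest, as Wt1 was lowest in experimental 1 and close to its highest in control 1. Aldh1a2, the retinoic acid enzyme of mesothelium, differed by −0.29 (−0.71 to 0.13) and Msln by −0.11 (−0.48 to 0.26). Nkain4 (−0.04) and Lrrn4 (−0.07) differed less. Calb2 was higher in sign in the experimental arrays, by 0.73 (−0.46 to 1.91), at signals of 2.77 to 5.72. The epicardium of the heart also expresses Wt1, Tcf21 and Aldh1a2, and the cardiac muscle genes Myh6 (−0.52, interval −0.77 to −0.27) and Tnnt2 (−0.54, −0.86 to −0.22) were lower in sign in the experimental arrays with no overlap, though neither passed the adjustment. The part of heart tissue in the Wt1 values was not tested.

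**Figure D3:**
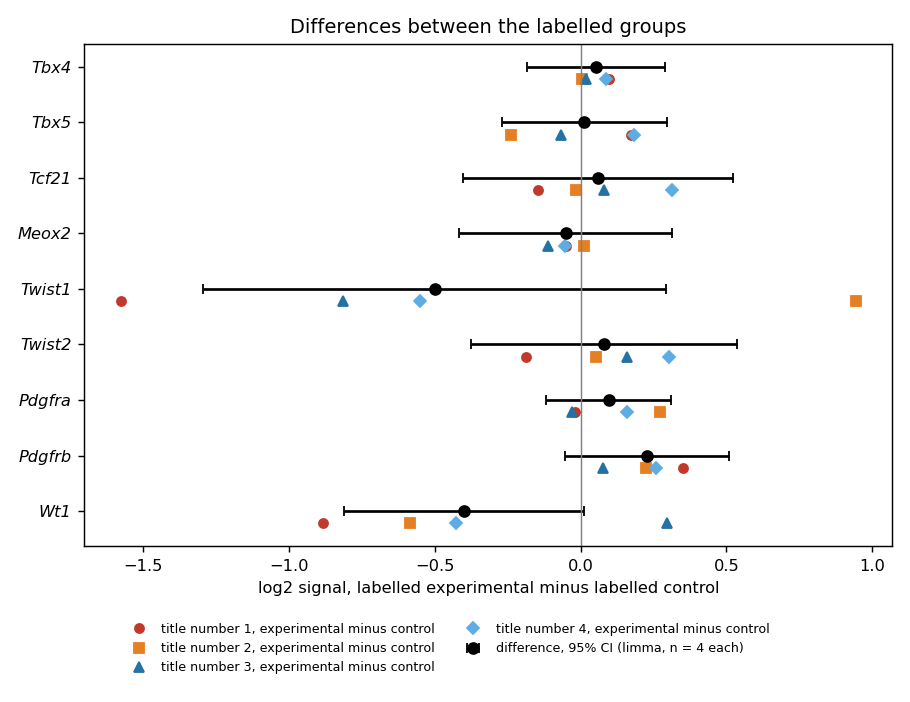
Difference in log2 signal, labelled experimental minus labelled control, for the 9 genes, with the 95% confidence interval in black (limma, n = 4 each) and the difference within each title number as coloured symbols. Every interval includes 0, that of Wt1 only just (−0.81 to 0.01), and Pdgfrb and Tbx4 have all 4 symbols above 0.

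A further 25 transcription factors of lung or general mesenchyme gave the surroundings of these genes. Between the labelled groups 13 were higher and 12 lower in sign, 0 passed and the median was 0.01. By number 7 of 25 were separated (28%, beside 10.6% of all genes and 17.3% of those brighter than the median), 2 higher and 5 lower in the arrays numbered 1 and 2. Meox1, the paralog of Meox2, was separated in the opposite direction, at 7.38 to 7.82 in the arrays numbered 1 and 2 and 8.19 to 8.45 in those numbered 3 and 4 (−0.71). Snai1, a repressor of epithelial genes, was lower as well (−0.58), whereas the limb and head mesenchyme factor Prrx1 was higher (0.49). Foxf1, a Hedgehog-dependent factor, was lower (−0.36), so mesenchymal factors moved in both directions, some with Tcf21 and Meox2 and some against them.

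**Figure D4:**
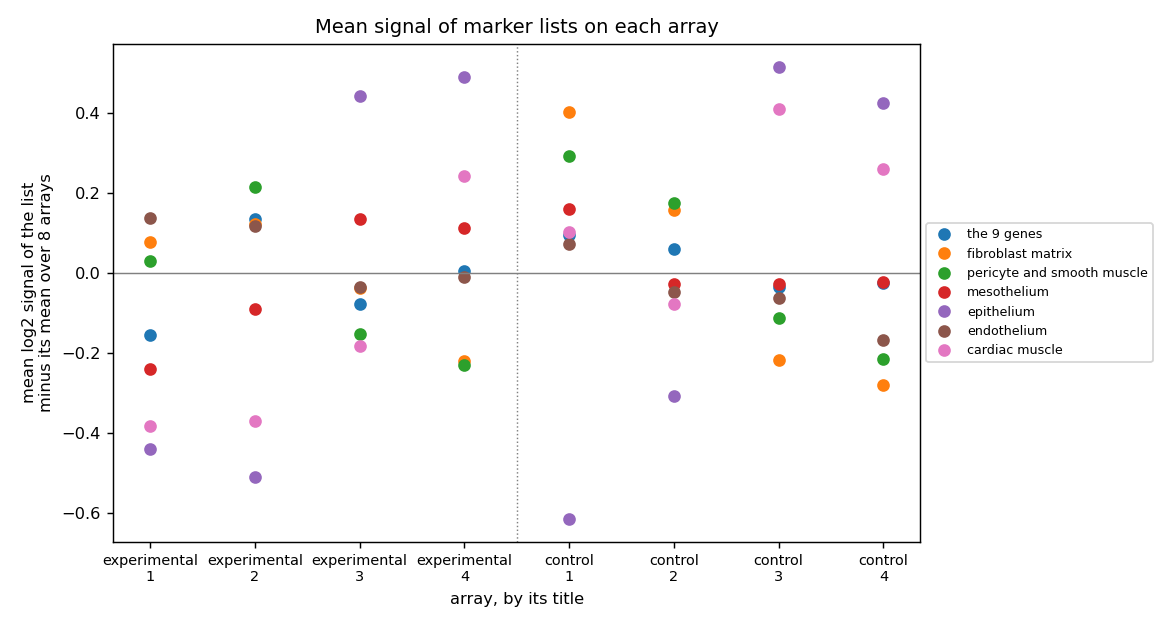
Mean log2 signal of each marker list on each array, minus its mean over the 8 arrays (vertical axis), with arrays by title along the horizontal axis, labelled experimental on the left. The epithelial list, which includes Etv5 and Sox9, is low in numbers 1 and 2 and high in numbers 3 and 4 of both labels. The fibroblast matrix and smooth muscle lists run the other way, and the mean of the 9 genes stays between 9.48 and 9.76 before centring. The cardiac list includes Myh7, which differed by −3.88 between the numbers.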

How the data were processed

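Agilent mouse arrays of 8 left lung lobes were scanned and spot signals extracted by the authors with Mapix and limma, per the study's methods. The deposited values are log2 signals that the authors background-corrected by normexp (offset 1, fitted to the negative controls) and quantile-normalized, so every array has a median of 4.43. Base 2 was read from the values, whose highest was 16.00. Quantile normalization forces 1 distribution on all arrays, and signals near 2.00 or 16.00 are compressed. Of 62976 spots, 2 lacked a value on an array and were left out, and 43941 had 1 gene symbol. Symbols were updated through the RefSeq table (GRCm38.p6, names only), with 33704 accessions matched. The brightest spot represented a gene.

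Groups and numbers came from the titles. Differences, experimental minus control, were fitted over 24583 genes with limma 3.58.1 (R 4.3.3) in a two-sided, unpaired design with Benjamini-Hochberg adjustment. The fit was tested on simulated data, where 179 of 200 genes changed by 2 log2 units passed, with 8 false calls. The simulated arrays had no split by number and larger changes than those of the 9 genes. That run therefore does not show whether differences as small as theirs could pass. Once group means were removed, arrays that share a title number correlated at 0.109 to 0.146 across genes, above 0.1 for each number, so the replicate block was run as an alternative. Named genes were all 9 genes, the Pdgf ligands, the bHLH partners, Fgf10, Wnt2, Wnt2b and Bmp4, up to 3 genes of each other list with the largest difference by number, and the nearest patterns. Cldn5, Eln, Epcam, Cldn6, Cdh1, Krt8, Krt18, Sftpc, Shh, Myh6, Tnnt2, Aldh1a2, Msln, Foxf1, Tbx2 and Tbx3 and the list examples Vim, Col1a1, Fn1 and Nkx2-1 were named after their values were seen. The genes and lists were chosen with earlier results of these data known. Alternatives covered the block, the moderation, the spot rule, a signal filter, scaling to the fibroblast matrix list and omission of each array. Those restricted to the arrays of some numbers were chosen after seeing the data.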

Additional observations from a re-analysis of the deposited data

How the results depend on the processing

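Between the labelled groups 0 genes and 0 of the 9 passed in all 17 alternatives, among them the replicate block (0 genes, 1182 at an unadjusted p under 0.05 against 876 without it), which changed no call, and limma with trend and robust (616 unadjusted, with Wt1 and Pdgfrb among them). Limma also called 1 of the 9 at an unadjusted p under 0.05 in the fit to brighter genes and in the arrays numbered 1 and 2 alone. It did so too with experimental 2, experimental 3 or control 3 left out in turn. Of 152 values of single genes, 138 kept their sign and 14 did not. Those that did not stayed within 0.09 of 0. They were Tbx5 (−0.0324), Tcf21 (−0.0799) and Twist2 (−0.0683) in the arrays numbered 1 and 2 alone, Pdgfra (−0.0015) with the mean of its spots, and values with 1 array left out, which ranged from −0.0716 to 0.0778 for Tbx5, from −0.0733 to 0.182 for Tcf21, from −0.148 to 0.0252 for Meox2 and from −0.0876 to 0.181 for Twist2. Twist1 was too dim for the fit restricted to brighter genes. Twist1 ranged from −0.76 (without experimental 2) to −0.27 (without experimental 1) with 1 array left out. Wt1 ranged from −0.52 to −0.30 with 1 array left out and from −0.73 to −0.07 over all alternatives.

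By title number, Tcf21 and Meox2 were separated without any 1 array and with the mean of all spots, and the count of separated genes was 2 to 3 with 1 array left out, since Tbx5 joined without control 2, while the share over all genes was 13.5% to 15.5% (15.5% without control 2) against 10.6% with all arrays. Scaling to the fibroblast matrix list, which moved the median of all genes by −0.38, turned Tbx4 (−0.32), Pdgfra (−0.37), Pdgfrb (−0.28) and Wt1 (−0.31) lower and left 70 genes separated higher and 7254 lower, against 1271 and 1325 without it. With 1 array left out, the difference by number ranged from −0.32 to 0.20 for Twist1, −0.0399 to 0.051 for Pdgfra and −0.0653 to 0.248 for Wt1. These genes have no settled direction by number. The number of arrays limits every interval. For Tcf21 and Meox2 the split by number widened it as well. With that split as a factor, the standard error of the labelled difference fell from 0.20 to 0.11 for Tcf21 and from 0.16 to 0.09 for Meox2. It rose for Twist1 (0.35 to 0.37) and Wt1 (0.18 to 0.19).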

Other observations

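Endothelial and leukocyte genes mostly overlapped between the title numbers. Of 7 endothelial genes 1 was separated by number, Esam (0.37). Of 6 leukocyte genes 1 was separated, the macrophage receptor Csf1r (0.30). Both counts (14.3% and 16.7%) lie near the share over all genes (10.6%, and 17.3% of those brighter than the median).

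Single genes of the marker lists stepped further by number. Myh7, a slow myosin of ventricle and skeletal muscle, had 3.82, 5.30, 5.15 and 5.58 in experimental 1, experimental 2, control 1 and control 2, against 8.92, 8.69, 9.08 and 8.66 in experimental 3, experimental 4, control 3 and control 4. The other 8 cardiac genes differed by −0.36 to 0.47 between the numbers. Ret, the receptor of enteric and autonomic neural crest, ran the other way, at 5.67 to 6.01 in the arrays numbered 1 and 2 and 3.59 to 4.79 in those numbered 3 and 4. Small leucine-rich proteoglycans of the mesenchymal matrix were higher in the arrays numbered 1 and 2, by 0.94 for Lum and 0.83 for Dcn, and both were highest in control 1.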
